A study of Mus musculus with 16 samples.

Results

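The 12 pancreas libraries from mice that carried Pdx1-Cre with floxed alleles were compared with the 4 libraries from wild-type mice, and genes that shifted the same way in all 3 Cre genotypes were described. These 12 libraries were chosen by their sample titles, out of 16 in the series. The Pdx1-Cre transgene was combined with Daxx fl/fl in DC mice, with Men1 fl/fl in MC mice, and with both Daxx fl/fl and Men1 fl/fl in DMC mice. WT mice were labelled wild type, with no Cre and no floxed allele named. Each group held 4 animals. All 4 groups, WT included, had received caerulein as adults of 6 to 10 weeks. Doses of 50 ug/kg were injected hourly 4 times a day, on 3 days a week over 3 weeks, and the pancreas was taken 5 days after the last dose. Total RNA from the whole organ was sequenced.

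Pdx1 is the transcription factor that marks the progenitors of the pancreatic epithelium, so Pdx1-Cre recombines floxed alleles in acinar, ductal and endocrine cells and leaves most stromal, vascular and immune cells of the organ unrecombined. Daxx is a chaperone that places the histone variant H3.3 in chromatin, and Men1 encodes menin, a scaffold that holds MLL histone methyltransferases on promoters. Both are tumour suppressors in pancreatic endocrine cells. Caerulein is a cholecystokinin analogue that overstimulates acinar cells, and repeated courses damage them, draw in immune cells and activate matrix-producing stellate cells, while acinar cells take on ductal and gastric features. Because each Cre genotype also carried a floxed gene and no WT mouse was labelled with Cre, an effect of Pdx1-Cre, a property of the shared WT libraries and a response to injury common to the 3 floxed genotypes cannot be told apart here. In whole-organ RNA, fewer cells of a type and less RNA per cell cannot be told apart either.

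Recovered reads came to 13481063 to 23728309 per library over 15156 genes, of which 14220 reached 10 normalized counts in 4 or more libraries and were tested. Acinar enzyme transcripts dominated all libraries, and the 10 most abundant genes held 33.5% to 51.8% of reads, with WT libraries 1 and 4 highest at 51.8% and 50.9%. The tissue label held by its defining markers. Cpa1, the acinar carboxypeptidase, had 311058, 586839 and 761970 normalized counts as the lowest, median and highest of the Cre libraries, against 1088110, 561392, 607389 and 935365 in the WT libraries. Ins2, an insulin gene of islet beta cells, was read in every library, from 3763 to 51193 normalized counts in the Cre libraries and from 3196 to 15863 in WT. Levels of Y-linked genes showed that animals of both sexes were present, and the labels give no sex. The levels were high in DC library 1, MC libraries 1 and 2, DMC libraries 1 and 3, and WT libraries 1 and 2. They were low in all other libraries, so DC held fewer high libraries than the other groups.

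The floxed genes came first as a check on the labels. Men1, on chromosome 19 (GRCm38, 6334979 to 6340891, plus strand), had 397, 481, 508 and 541 normalized counts in the DC libraries, 127, 116, 136 and 147 in MC, 157, 175, 161 and 178 in DMC, and 331, 345, 459 and 336 in WT. Every MC and DMC library lay below every WT library, while 3 of the 4 DC libraries lay above them. The mean over the 3 Cre genotypes was 0.73 ± 0.11 lower on the log2 scale (limma, adjusted p = 0.0116), but the genotypes went opposite ways, at 0.39 in DC, -1.47 in MC and -1.12 in DMC, so Men1 does not belong to the genes shifted together. Daxx, on chromosome 17 (33909414 to 33915590, plus strand), had 224, 212, 245 and 212 normalized counts in DC, 223, 249, 230.4 and 281 in MC, 160.3, 225, 179 and 162 in DMC, and 232, 278, 346 and 195 in WT. Its difference of -0.26 ± 0.13 did not pass (limma, adjusted p = 0.427), and was -0.20 in DC, -0.07 in MC and -0.51 in DMC. Every DC and MC library lay within the WT range, while DMC libraries 1, 3 and 4 lay below it. An exact two-sided permutation test over the 1820 ways of choosing 4 of 16 libraries gave p = 0.120 for Daxx and p = 0.0989 for Men1. The smallest p it allows is 0.000549. The pooled limma and permutation values include MC for Daxx and DC for Men1, where that gene was not floxed. Those p-values therefore cannot check the floxed alleles. The counts cover the whole gene in whole pancreas, so they do not measure the floxed exons, or the epithelial cells, alone.

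With each genotype weighted equally, 73 of the 14220 genes passed (limma on log2 of the normalized count plus 1, Benjamini-Hochberg adjusted p below 0.05), which is 0.513%. Of these, 57 were higher in the Cre genotypes (0.401% of genes tested) and 16 were lower (0.113%). All 73 are protein coding. The differences from WT had 1 sign in DC, MC and DMC for 69 of the 73, with 54 higher and 15 lower, beside 24.7% and 29.1% of all genes tested that had 1 sign upward or downward. The contrast averages the 3 genotypes and all 3 share the same WT libraries, so agreement in sign among called genes is in part built in. The 4 called genes without 1 sign were Cym, Alb, Men1 and Ajuba. In 73 genes all 12 Cre libraries exceeded all 4 WT libraries (0.513%), and in 19 all were below (0.134%). Of the called genes, 20 lay wholly above and 3 wholly below WT.

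A second test asked whether the 3 Cre genotypes differed among themselves, a comparison that takes no mean from WT. The F-test over DC, MC and DMC passed for 152 of all genes (1.07%) and for 24 of the 73 called genes (32.9%), which leaves 49 called genes in which no difference among the genotypes passed. A p that missed the threshold does not show that the genotypes were alike, so the size in each genotype is given throughout. In these 49 the median size of the log2 difference from WT was 0.97 in DC, 1.20 in MC and 1.31 in DMC. In the other 24 it was 0.29 in DC, 1.60 in MC and 1.97 in DMC. DC had the smallest difference of the 3 genotypes in 34 of the 49 genes and in 21 of the 24. In 22 of the 49, no Cre library overlapped the WT range, with 19 above and 3 below. Those 22 genes, picked for that pattern after their values were seen, are the closest to a shift held in common. None of the 22 passed when DMC was left out, where Bglap3 alone passed. Of all genes tested, 5 passed without MC and 252 without DC. The levels of the 22 were as follows.

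Among cell surface and secreted proteins, C1qtnf1, which encodes a secreted relative of adiponectin, had 95.8, 189 and 492 normalized counts as the lowest, median and highest of the Cre libraries, against 60.1, 65.1, 67.7 and 85.6 in the WT libraries. DMC held the highest libraries on average, at 269 to 492, and the lowest DC library stood just above the highest WT one. The rise was 2.98-fold on the log2(normalized count + 1) scale (log2 1.57 ± 0.24, limma, adjusted p = 0.0125), with 0.89 in DC, 1.52 in MC and 2.31 in DMC. Gas6, the ligand of the TAM receptor tyrosine kinases Axl and Mertk that take part in clearing dying cells, was the most abundant called gene. It had 1645, 2438 and 3725 normalized counts across the Cre libraries and 1611, 1381, 1032 and 1340 in WT. The gap to WT library 1 was small, and DC library 1 was highest. Its log2 difference was 0.90 ± 0.17 (limma, adjusted p = 0.0301), at 0.79 in DC, 0.90 in MC and 1.01 in DMC. Sfrp1, a secreted antagonist of Wnt ligands, had 324, 536 and 845 normalized counts in Cre libraries against 318, 217, 250.3 and 267 in WT, a log2 rise of 0.97 ± 0.21 (limma, adjusted p = 0.0490). Thbs3, a matrix thrombospondin, had 197, 290.4 and 388 against 163, 156, 137 and 171, and rose by 0.90 ± 0.16 (limma, adjusted p = 0.0255), with 0.78, 1.04 and 0.89 in DC, MC and DMC.

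Signalling receptors and coreceptors were also in the set. Gas1, a membrane protein that binds Hedgehog ligands, had 282, 324 and 622 normalized counts as the lowest, median and highest of the Cre libraries and 180.5, 191, 157 and 260.2 in WT. WT library 4 came closest to the Cre range. Its log2 difference was 0.84 ± 0.17 (limma, adjusted p = 0.0413), at 1.01 in DC, 0.71 in MC and 0.79 in DMC. Ephb2, an ephrin receptor tyrosine kinase, had 155, 221 and 359 against 104, 106, 88.9 and 103, a 2.24-fold rise (log2 1.16 ± 0.22, limma, adjusted p = 0.0301) with genotype values of 1.23 in DC, 1.16 in MC and 1.10 in DMC. Podxl, the sialomucin podocalyxin, had 367, 492 and 547 normalized counts across the Cre libraries against 301, 304, 299 and 360.3 in WT. The rise was small, yet DC, MC and DMC stood at 0.57, 0.57 and 0.62 (log2 0.59 ± 0.10, limma, adjusted p = 0.0263). Plet1, an epithelial surface glycoprotein, had 107, 127 and 203 in Cre libraries. Its WT values of 99.0, 48.8, 28.6 and 72.5 were more scattered, and WT library 1 nearly reached the Cre range.

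Ion and metal transport was represented by several members. Slc4a3, an anion exchanger for chloride and bicarbonate, had 145, 200 and 268 normalized counts as the lowest, median and highest of the Cre libraries, against 101, 102, 71.8 and 126 in the WT libraries. Its groups were separate and its 3 genotype differences were close, at 0.90, 1.04 and 1.04 in DC, MC and DMC, for a mean of 0.99 ± 0.16 (limma, adjusted p = 0.0182). Atp7b, the copper ATPase that loads ceruloplasmin and exports copper, had 40.7, 95.03 and 177 against 19.4, 30.7, 28.6 and 20.9, a 3.38-fold rise (log2 1.76 ± 0.28, limma, adjusted p = 0.0182). DC libraries 2 and 4 were the lowest of the Cre libraries for it. Gabrp, a GABA-A receptor subunit found in epithelia, had 36.5, 67.4 and 213 in Cre libraries and 7.07, 15.4, 22.0 and 8.78 in WT. The highest value was DC library 1, and the 3 genotypes stood at 2.46, 2.84 and 2.38 (log2 2.56 ± 0.42, limma, adjusted p = 0.0190). Asic2, an acid-sensing channel subunit, and Svopl, a transporter-like protein, were read at few counts, with medians of 14.5 and 16.5 normalized counts over the Cre libraries.

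Of the remaining members above WT, Cygb, the globin of stellate cells and fibroblasts, had 299, 460.2 and 675 normalized counts in the Cre libraries against 233, 250.1, 236 and 243 in WT, for a rise of 0.89 ± 0.17 in log2 (limma, adjusted p = 0.0339). Hr, a nuclear corepressor, had 64.0, 94.9 and 148 against 49.5, 46.1, 42.4 and 51.6. Pid1 had 294, 377 and 708 against 233, 241, 254 and 209. Xkr4, Zfp385b and Dpp6 completed the 19, with log2 differences of 1.69, 1.31 and 1.57. Among the 19, the 3 genotypes lay closest together in Podxl, Ephb2 and Slc4a3 and farthest apart in Dpp6, at 0.81 in DC, 1.59 in MC and 2.30 in DMC.

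The 3 genes wholly below WT were Plcl2, Zbtb46 and Snx25. Plcl2, a phospholipase-like protein without catalytic activity, had 611, 663 and 784 normalized counts as the lowest, median and highest of the Cre libraries, against 1032, 894, 965 and 982 in the WT libraries. The groups were well apart, and the genotype differences were -0.46 in DC, -0.46 in MC and -0.54 in DMC (log2 -0.48 ± 0.08, limma, adjusted p = 0.0255). Zbtb46, a repressor that marks classical dendritic cells and is also expressed in endothelium, had 218, 269 and 335 against 419, 339, 360.2 and 443. DC library 3 lay just under WT library 2, and the log2 difference was -0.54 ± 0.11 (limma, adjusted p = 0.0339). Snx25, a sorting nexin, had 159, 192 and 228 against 267, 254, 304 and 247, and lay just inside the threshold (log2 -0.50 ± 0.11, limma, adjusted p = 0.0498).

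**Figure D1:**
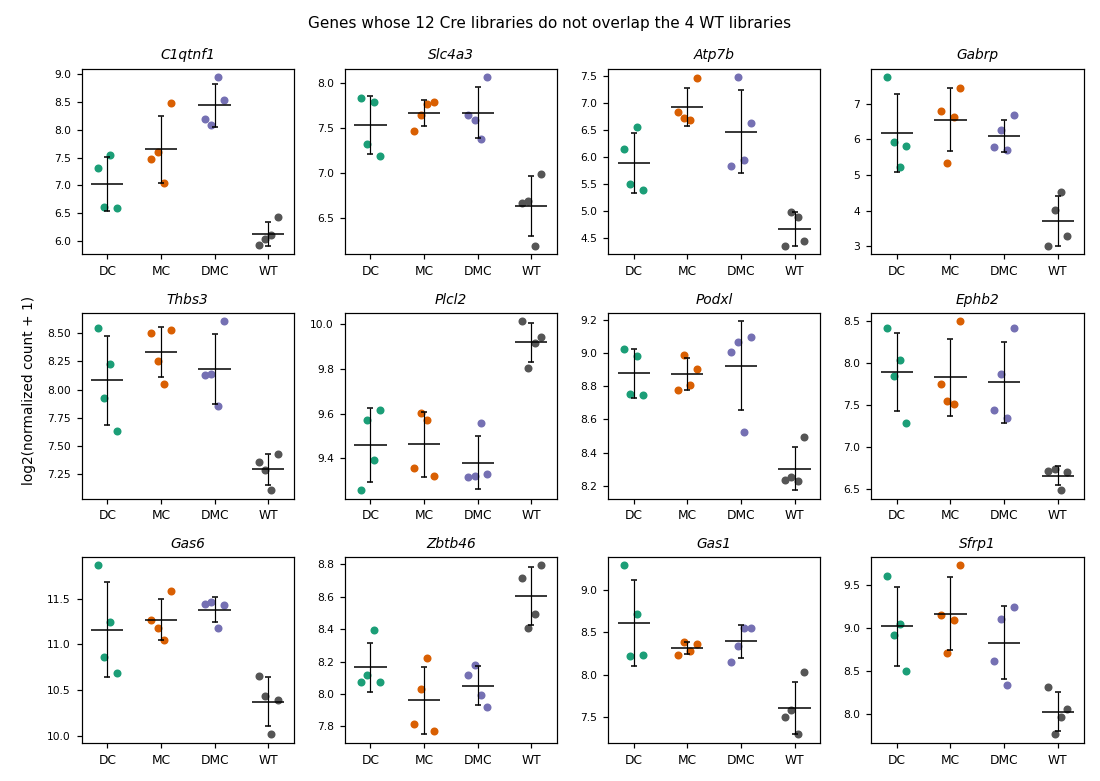
Log2(normalized count + 1) of 12 of the 22 genes in which no Cre library overlapped the WT range, by library. Points are animals (n = 4 per genotype), horizontal bars are group means and error bars are SD. Plcl2 and Zbtb46 lie below WT in all 3 Cre genotypes and the other 10 lie above it.

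Promoter sequences of 4 of these genes are shown so that their starts can be set side by side. They are RefSeq sequences on GRCm38.p6, from 250 bases before to 50 after the start, written 5′ to 3′ on the gene's strand, with capitals on GC boxes (GGGCGG on either strand) and CCAAT boxes (CCAAT on either strand).
Slc4a3 promoter, chr1:75546212-75546511, plus strand: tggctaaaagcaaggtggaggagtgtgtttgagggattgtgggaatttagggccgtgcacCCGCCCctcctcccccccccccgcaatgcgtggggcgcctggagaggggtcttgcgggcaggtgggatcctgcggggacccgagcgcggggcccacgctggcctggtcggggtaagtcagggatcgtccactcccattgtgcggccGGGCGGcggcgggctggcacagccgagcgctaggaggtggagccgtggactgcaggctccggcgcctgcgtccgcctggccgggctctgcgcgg
Thbs3 promoter, chr3:89214930-89215229, plus strand: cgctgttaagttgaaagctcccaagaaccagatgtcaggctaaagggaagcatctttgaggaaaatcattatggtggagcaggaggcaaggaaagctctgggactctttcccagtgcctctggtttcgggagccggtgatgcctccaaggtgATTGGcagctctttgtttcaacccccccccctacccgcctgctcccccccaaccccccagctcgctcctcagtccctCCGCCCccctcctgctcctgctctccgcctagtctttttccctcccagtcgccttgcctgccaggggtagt
Gas6 promoter, chr8:13494486-13494785, minus strand: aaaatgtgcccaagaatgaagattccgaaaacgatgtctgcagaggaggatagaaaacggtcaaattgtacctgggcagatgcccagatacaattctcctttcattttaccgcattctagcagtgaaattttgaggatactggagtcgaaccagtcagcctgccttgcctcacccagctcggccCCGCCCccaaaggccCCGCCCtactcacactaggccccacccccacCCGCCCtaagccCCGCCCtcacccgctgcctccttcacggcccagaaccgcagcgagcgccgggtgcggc
Gas1 promoter, chr13:60177486-60177785, minus strand: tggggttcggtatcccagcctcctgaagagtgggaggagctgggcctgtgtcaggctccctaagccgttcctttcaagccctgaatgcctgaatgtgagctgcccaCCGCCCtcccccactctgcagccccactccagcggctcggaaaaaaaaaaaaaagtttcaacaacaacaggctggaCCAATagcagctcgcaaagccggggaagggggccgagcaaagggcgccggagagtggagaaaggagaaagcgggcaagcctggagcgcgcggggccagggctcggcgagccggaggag
Slc4a3 held 2 GC boxes, Gas6 held 4, and Thbs3 and Gas1 held 1 GC box and 1 CCAAT box each. These 4 do not stand for all the genes without overlap. Among the others, Atp7b, Gabrp, Ephb2, Plet1 and Zbtb46 held no GC box. Pid1 held 3, and Snx25 held 8 in 1 promoter and 1 in another. Of the 73 called genes, 55 were matched to the promoter table. GC boxes were found in 25 of the 55 (45.5%, beside 35.7% of all 32851 promoters), CCAAT boxes in 25 (45.5%, beside 37.4%), the TATA box TATAAA in 10 (18.2%, beside 13.6%), the AP-1 motif TGANTCA in 5 (9.09%, beside 7.81%) and the E-box CACGTG in 5 (9.09%, beside 7.15%), each on either strand. A gene with several promoters in the table counted once if any held the motif, while the shares of all promoters are per promoter. The GLI motif GACCACCCA was in 0 of the 55 and in 0.253% of all promoters. The called genes lay on 19 chromosomes, with 9 on chromosome 6, 8 on chromosome 11 and 7 on chromosome 8, and the only pair within 1 Mb of each other was Bglap3 and Thbs3 on chromosome 3, 0.842 Mb apart.

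Outside the set without overlap, 27 further called genes had no difference among genotypes that passed. Gli1, the transcription factor that is itself a target of Hedgehog signalling, had 18.7, 60.8 and 118 normalized counts as the lowest, median and highest of the Cre libraries, against 14.1, 15.4, 14.7 and 23.1 in the WT libraries. Only DC library 4, at 18.7, fell within the WT range, whose top was WT library 4. Its 3.35-fold rise (log2 1.74 ± 0.27, limma, adjusted p = 0.0128) was 0.97 in DC, 2.14 in MC and 2.12 in DMC. Sftpd, a collectin of innate defence, had 50.6, 126 and 218 against 35.4, 35.3, 62.8 and 34.0, with WT library 3 apart from the other WT libraries (log2 1.49 ± 0.24, limma, adjusted p = 0.0182). Cldn2, a pore-forming claudin of leaky epithelia, had 161, 317 and 712 against 161, 114, 117 and 79.1 (log2 1.59 ± 0.30, limma, adjusted p = 0.0301), and DC library 4 lay at the level of WT library 1. Gkn3 and Slc9a4, a gastrokine and a sodium-proton exchanger of the stomach, had large averages that came mostly from MC and DMC, at 5.02 and 5.44 for Gkn3 and 4.17 and 3.71 for Slc9a4, while DC stood at 0.99 for both. Without DC library 4 the DC difference was 1.95 for Gkn3 and 1.53 for Slc9a4. Among the falls, Galnt6, a transferase that starts mucin-type O-glycans, had 81.0, 168 and 354 against 375, 521, 513 and 346 (log2 -1.37 ± 0.29, limma, adjusted p = 0.0490). Serpini1, the serine protease inhibitor neuroserpin, had 286, 380.1 and 709 against 1015, 599, 614 and 850 (log2 -0.87 ± 0.16, limma, adjusted p = 0.0282). Pde8b, a cyclic AMP phosphodiesterase, fell by 1.12 and Stambpl1, a deubiquitinase, by 0.59, with DC libraries overlapping WT in both.

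Other members of these 27, named after their values were seen, overlapped WT by little. Ptprs, a receptor tyrosine phosphatase that binds proteoglycans, had 789, 1305 and 1670 normalized counts as the lowest, median and highest of the Cre libraries, against 477, 796, 726 and 668 in the WT libraries. Only DC library 2 fell within the WT range (log2 0.95 ± 0.15, limma, adjusted p = 0.0182). Cobl, an actin nucleator, had 178, 352 and 694 against 210.4, 98.5, 125 and 98.8, and WT library 1 was the one that reached the Cre range. Pcdh11x, a protocadherin, was read at low counts, with 4.90, 24.5 and 96.9 against 0, 5.42, 0.816 and 1.10, and the DMC libraries were highest at 63.6 to 96.9. Itgbl1, a matrix protein related to integrins, stood at 1.41 in DC, 1.30 in MC and 0.62 in DMC, and Sult5a1, a sulfotransferase, at 1.38, 0.57 and 1.62, so DC was not always the smallest. Fxyd3, a regulator of the sodium pump, rose by 1.02 ± 0.19 (limma, adjusted p = 0.0301).

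**Figure D2:**
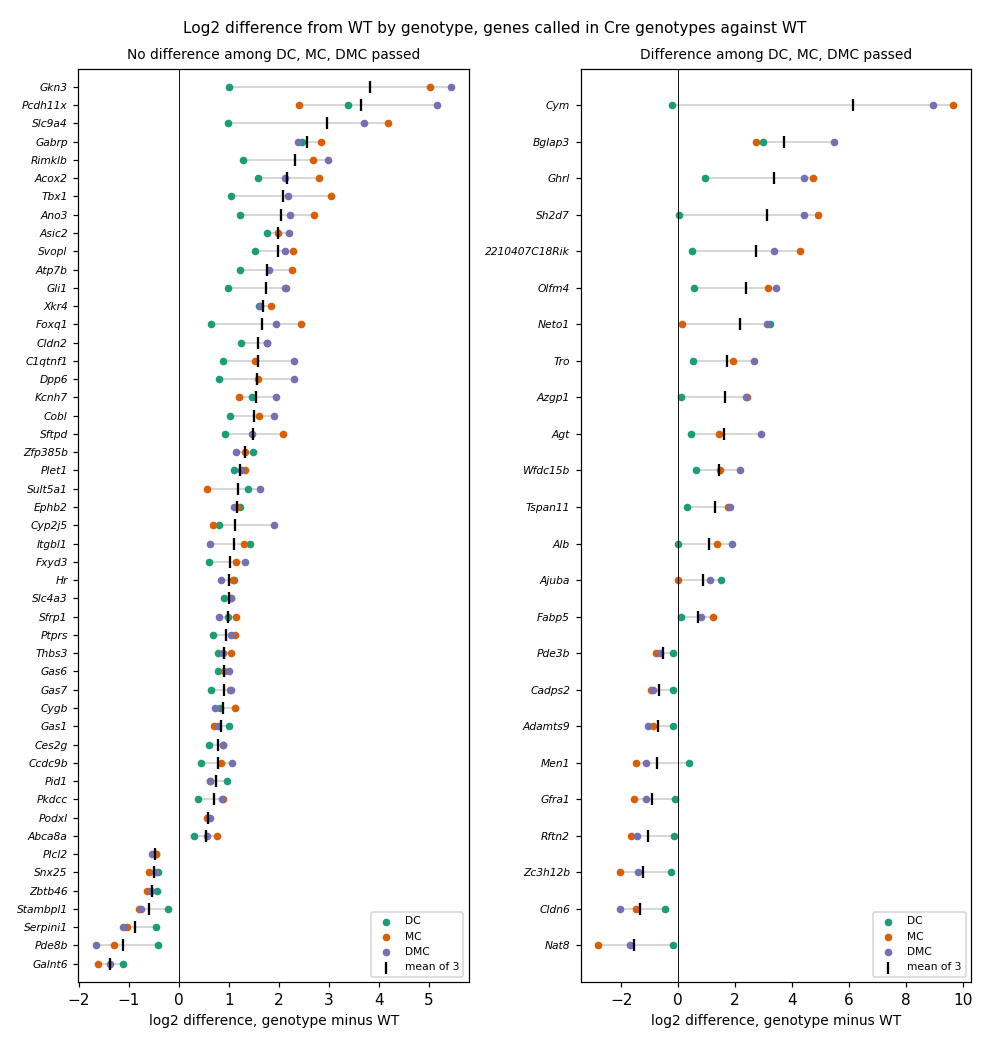
Log2 difference from WT in DC, MC and DMC for the 73 called genes, with the mean of the 3 as a black tick. The 49 genes on the left had no difference among Cre genotypes that passed, and the 24 on the right had one, where DC lies nearest 0 in 21.

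In the 24 called genes that did differ among the Cre genotypes, a pooled value describes no single genotype. Bglap3, a paralog of osteocalcin on chromosome 3 (GRCm38, 88368616 to 88372743, minus strand), was the exception in that it was far from WT in all of them. It had 326, 731, 338 and 620 normalized counts in DC, 619, 214, 359 and 546 in MC, 1770.4, 2010.3, 4394 and 3289 in DMC, and 99.0, 53.3, 62.8 and 37.3 in WT. No Cre library overlapped WT, and the DMC libraries lay above all others. The log2 differences were 2.97 in DC, 2.74 in MC and 5.47 in DMC, for a mean of 3.73 ± 0.32 (limma, adjusted p = 4.84e-05), the smallest p of the comparison. Near-identical osteocalcin paralogs lie beside it, and how reads shared by them were counted is not given in the sources used here, so the count is uncertain as to which copy was read. Pmf1, a kinetochore gene upstream on the same strand, had a median of 82.4 normalized counts over the Cre libraries and 70.7, 110.3, 98.7 and 81.3 in WT (log2 -0.04 ± 0.14, limma, adjusted p = 0.919), and was chosen for its position.

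In 21 of the other 23, DC was the genotype nearest to WT. Cym, the gastric protease chymosin, had 1.84, 1.66, 0 and 2.201 normalized counts in DC, 2089, 768, 1219 and 9856 in MC, 816, 4329, 427 and 1790.3 in DMC, and 3.54, 0, 0 and 8.78 in WT. The DC and WT libraries held a few reads or none. Alb, serum albumin, had 71.6, 98.7, 94.6 and 77.0 in DC, 301, 198, 208 and 190.1 in MC, 332, 388, 272 and 297 in DMC, and 101, 75.9, 71.0 and 96.6 in WT, with log2 differences of -0.01, 1.36 and 1.90 in DC, MC and DMC. Ghrl, the hormone ghrelin, had 26.9, 19.9, 18.2 and 5.50 in DC, 161, 71.4, 269 and 892 in MC, 51.0, 345, 86.2 and 704 in DMC, and 5.30, 6.33, 5.71 and 16.5 in WT. For ghrelin, 3 DC libraries exceeded WT and DC library 4 did not. Agt, angiotensinogen, was highest in DMC at 286 to 823 normalized counts, with 93.0 to 212 in MC, 48.4 to 122 in DC and 40.6 to 68.9 in WT. Azgp1, a zinc-binding glycoprotein, had 102 to 328 in MC and 168 to 263 in DMC, with 29.6 to 60.5 in DC beside 26.2 to 59.3 in WT. Olfm4, a glycoprotein of intestinal stem cells and inflamed epithelia, stood at 0.57 in DC, 3.17 in MC and 3.45 in DMC on the log2 scale. Sh2d7, an adaptor of tuft cells, had 5.51, 0, 0 and 0 normalized counts in DC, 39.2, 17.5, 39.4 and 165 in MC, 20.9, 106, 16.98 and 26.5 in DMC, and 1.77, 0, 0 and 1.10 in WT, so that no fold against WT is given.

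In the falls of this kind DC was again nearest to WT. Zc3h12b, a zinc finger ribonuclease, had 86.3, 97.9, 90.0 and 93.5 normalized counts in DC, 18.4, 28.6, 26.3 and 31.9 in MC, 44.6, 46.0, 28.7 and 46.6 in DMC, and 129, 104, 80.8 and 136 in WT. Every MC and DMC library was below every DC and WT library. Nat8, an N-acetyltransferase, had log2 differences of -0.19 in DC, -2.80 in MC and -1.71 in DMC. Cldn6, an embryonic claudin, stood at -0.46, -1.48 and -2.04, and Rftn2, a raft-associated protein, at -0.14, -1.65 and -1.44. Gfra1, the GDNF receptor, stood at -0.12, -1.56 and -1.11. Adamts9, a matrix protease, and Cadps2, a factor of dense-core vesicle release, fell on average by 0.71 and 0.68, with DC at -0.20 and -0.19. Ajuba, a LIM protein that restrains the Hippo kinases, went otherwise, with 331, 283, 262 and 298 normalized counts in DC, 94.4, 88.9, 98.0 and 131 in MC, 231, 285, 158 and 238 in DMC, and 140.3, 113, 85.7 and 82.4 in WT. There DC and DMC lay above WT and MC lay within its range. Neto1, an auxiliary subunit of glutamate receptors, had the same order at low counts, with 21.4 to 38.2 in DC, 0.725 to 4.90 in MC, 15.7 to 35.2 in DMC and 0 to 4.52 in WT. Fabp5, a fatty acid carrier, had 293 to 471 in DC, 756 to 975 in MC, 502 to 742 in DMC and 276 to 457 in WT. Pde3b, a phosphodiesterase of insulin signalling, stood at -0.17 in DC, -0.80 in MC and -0.65 in DMC.

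**Figure D3:**
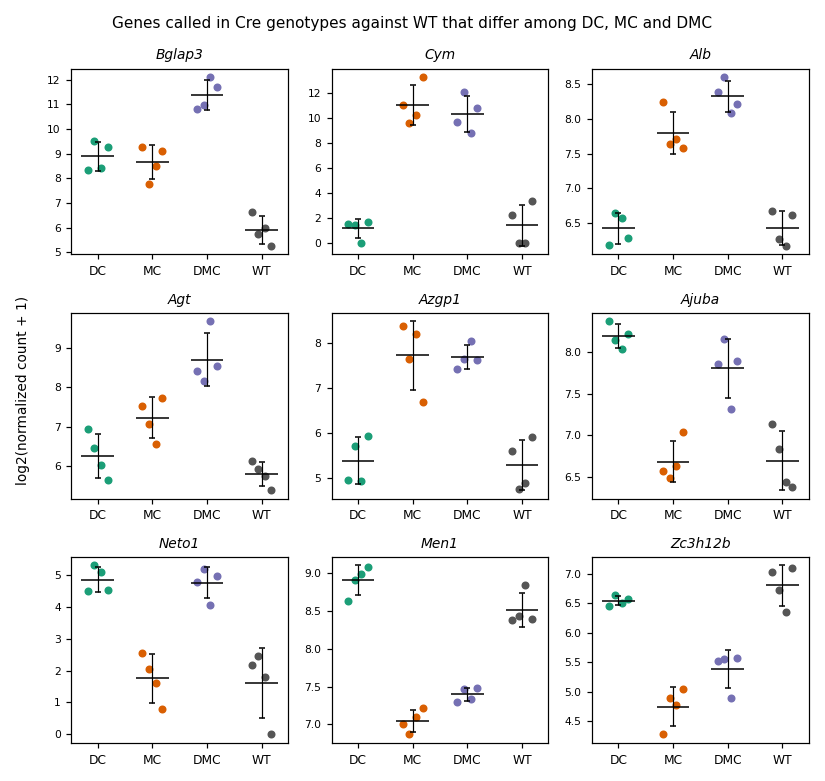
Log2(normalized count + 1) by library of 9 called genes that differ among DC, MC and DMC. Points are animals (n = 4 per genotype), horizontal bars are means and error bars are SD. Bglap3 is above WT in all 3 Cre genotypes, while Cym and Alb are near WT in DC, and Ajuba and Neto1 are near WT in MC.

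Gene lists are described by counts and medians beside those of all genes tested. Over all genes the median log2 difference was -0.03, with 6431 positive and 7789 negative differences. In limma 57 genes passed upward and 16 downward. At an unadjusted p below 0.05, 1834 of the 14220 genes stood out. Over the same 14220 genes, edgeR called 48 and DESeq2 called 340. Members of 9 of the 48 lists passed in limma. In the Wnt, fibroblast, tuft cell and islet hormone lists, where limma called 1 gene each, edgeR called 0, and DESeq2 called 2 fibroblast genes and 1 in each of the others. In the Hedgehog list edgeR called 1 and DESeq2 3, and in the Hippo list 1 and 2. Of the 11 Hedgehog genes tested, Gli1 and Gas1 passed upward and none downward, with a median of 0.38. Ptch1, the receptor, stood at 0.34 (limma, adjusted p = 0.277), with 0.12 in DC, 0.60 in MC and 0.31 in DMC. The signal transducer Smo stood at 0.08. Of 25 Wnt genes, Sfrp1 passed upward, and the median was 0.52. Ajuba was the member that passed among 16 Hippo genes, and Men1 among 19 genes of the H3.3 chaperone and menin complexes, whose median was -0.07, or -0.02 under quantile normalization.

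Stromal lists stood above WT in most members, with few that passed. Of 43 fibrillar collagen and matrix genes, 40 had a positive difference and 0 passed, with a median of 0.49 that was 0.77 in DC, 0.50 in MC and 0.33 in DMC. An unadjusted p below 0.05 was reached by 27 of the 43, beside 1834 of all 14220 genes tested. Of the 43, edgeR called 0 and DESeq2 called 7. Col3a1, a fibrillar collagen, had 10045, 16916 and 29538 normalized counts as the lowest, median and highest of the Cre libraries, against 10594, 11604, 13648 and 12725 in WT, and its groups overlapped (log2 0.55 ± 0.19, limma, adjusted p = 0.219). Of 27 fibroblast and stellate cell genes, Gas1 passed, and the median was 0.45. The mean log2 level of the collagen list reached 10.21 in DC library 1, above every other library, while WT libraries lay between 8.64 and 8.93. In 14 of the 19 genes wholly above WT, DC library 1 was the highest DC library. MC library 4 was the highest MC library in 12, and DMC library 4 the highest DMC library in 13. How often these libraries were the highest over all genes tested was not counted, so those counts have no background beside them. The part of stromal content in these gene differences was not tested. The 14 mesothelial and 22 endothelial genes had medians of 0.60 and 0.26, with 0 passing in either by limma or edgeR. At an unadjusted p below 0.05 there were 7 and 4, and DESeq2 called 1 mesothelial and 0 endothelial genes. Igfbp5, the most abundant of the mesothelial list, had 1073, 1356 and 2135 normalized counts in Cre libraries and 534, 659, 901 and 1149 in WT (log2 0.90 ± 0.21, limma, adjusted p = 0.0679).

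Medians of the gastric, ductal, tuft cell and endocrine lists varied by genotype, while the acinar enzyme median was negative in all 3. Of 30 acinar enzyme genes, 25 had a negative difference and 0 passed. In 21 the difference was negative in all 3 genotypes, beside 29.1% of all genes tested. The acinar median was -0.59 in DC, -0.34 in MC and -0.30 in DMC, and -0.37 for the pooled difference. That median became -0.02 under quantile normalization, -0.12 with library weights, -0.61 with the mean log2 level of the T, NK, B and plasma cell lists (the lymphoid level) as covariate, -0.21 without WT library 1 and -0.78 without WT libraries 2 and 3. Ctrb1, chymotrypsinogen, had 882461, 1436800.0 and 2006590.0 normalized counts in Cre libraries against 2680240.0, 1553760.0, 1441440.0 and 2177180.0 in WT, with a wide overlap. Of 15 gastric genes, Cym, Gkn3 and Slc9a4 passed upward in limma, while edgeR called 0 and DESeq2 called 9. The gastric median was 2.43, but DC stood at 0.01 beside 3.65 in MC and 3.42 in DMC. Of 28 ductal genes 0 passed, with a median of 0.17 that was -0.15 in DC, 0.35 in MC and 0.22 in DMC. It was 0.02 without WT library 3, 0.29 without WT library 1, 0.26 without WT library 2 and -0.04 without WT libraries 2 and 3, so its sign turned with the WT libraries used. It also moved by over 1.5 times with edgeR (0.11), the lymphoid covariate (0.11), without DC (0.28) and without MC (0.06). Sh2d7 passed among 12 tuft cell genes, where the median was 0.05 in DC, 0.73 in MC and 0.80 in DMC. Over the 3 genotypes the tuft median of 0.54 was 0.96 with the lymphoid covariate and 1.15 without WT libraries 2 and 3. Of 8 islet hormone genes Ghrl passed, and insulin did not (Ins2 log2 0.81, limma, adjusted p = 0.538). The 33 other endocrine genes had a median of 0.77, at 0.15 in DC, 0.78 in MC and 1.36 in DMC, and 0 passed. At an unadjusted p below 0.05 there were 2 of 30 acinar, 5 of 28 ductal and 14 of these 33 endocrine genes, beside 1834 of all 14220. From these 3 lists edgeR called 0 genes, and DESeq2 called 2 acinar, 2 ductal and 1 endocrine. Transcripts of Pdx1 itself stood at 0.07 ± 0.23 (limma, adjusted p = 0.910).

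Immune lists depended on which WT animals were used. Over 25 genes of T and NK cells the median was -0.999 and over 21 of B and plasma cells it was -1.38, with 0 passing in either. The mean log2 level of the T and NK cell list was 3.38, 6.93, 7.55 and 4.86 in WT libraries 1 to 4. That of the B and plasma cell list was 5.02, 8.35, 8.99 and 6.70. Libraries 2 and 3 were the highest WT libraries for both lists, so leaving them out raises the differences by construction. Without WT libraries 2 and 3, the medians turned to 0.63 for the T and NK cell list and 0.28 for the B and plasma cell list. Without WT library 1 they were -1.89 and -2.14, and without WT library 3 -0.37 and -0.70. Without WT library 2 the T and NK cell median was -0.59. With the lymphoid covariate the medians of the lists were 0.06 and -0.20. That covariate is the mean level of these same genes, so the move towards 0 was built in. The T and NK cell median was -1.61 with edgeR, -1.59 with DESeq2 and -1.72 with library weights. The 10 neutrophil genes had a median of 1.18, at 1.11 in DC, 1.53 in MC and 0.61 in DMC, and 0 passed. It was 0.66 under quantile normalization, 0.57 with a mean filter of 50 and 0.76 with library weights. Of the 43 interferon-stimulated genes 39 had a positive difference, with a median of 0.46, and 0 passed. That median was 0.11 without WT library 1, 0.94 without WT library 3, 0.29 without WT library 4 and 1.30 without WT libraries 2 and 3. It was 0.27 without MC, 0.19 with edgeR, 0.22 with DESeq2 and 0.83 with the lymphoid covariate. Zbtb46 was the dendritic cell gene that passed, among 19 with a median of 0.11. The sign of that median turned with single libraries, at -0.51 without WT library 1, -0.13 without WT library 4 and -0.02 without DMC library 2, against 0.55 without WT library 3. It was -0.56 with edgeR, -0.54 with DESeq2 and 1.07 without WT libraries 2 and 3, so no direction is given for this list. All 28 oxidative phosphorylation genes had a negative difference with a median of -0.19, and 16 of 17 fatty acid oxidation genes had one, with a median of -0.27, and 0 passed in both. The oxidative phosphorylation median was -0.12 without WT library 1, -0.34 without WT libraries 2 and 3, -0.12 under quantile normalization, -0.09 with library weights and -0.31 with the lymphoid covariate. Unadjusted p-values below 0.05 were found for 2 of 25 T and NK cell, 2 of 21 B and plasma cell and 6 of 10 neutrophil genes. They were found for 9 of 43 interferon-stimulated, 4 of 28 oxidative phosphorylation and 5 of 17 fatty acid oxidation genes, beside 1834 of all 14220. The T and NK cell, B and plasma cell and oxidative phosphorylation counts were near or below the share of all genes. Of these lists edgeR called 0 members, and DESeq2 called 3 fatty acid oxidation genes and 0 in the others.

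**Figure D4:**
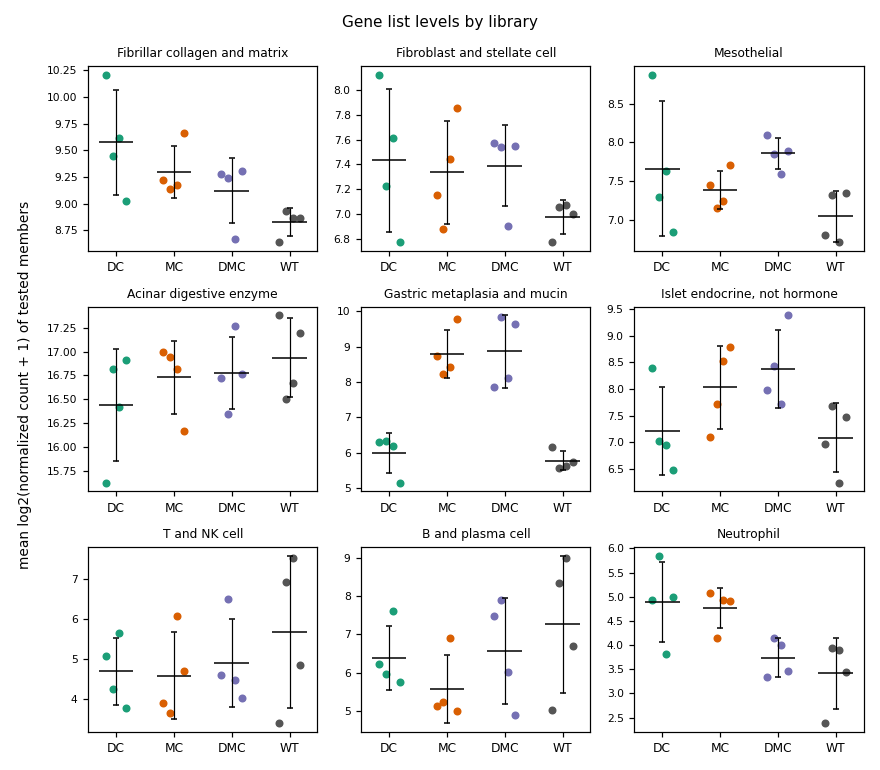
Mean log2(normalized count + 1) of the tested members of 9 gene lists by library. Points are animals (n = 4 per genotype), horizontal bars are means and error bars are SD. DC and WT lie together for the gastric list, and WT spans 3.38 to 7.55 for the T and NK cell list.

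The number of genes past the threshold turned on single libraries. Bglap3, Cym, Pcdh11x, Alb, Zc3h12b, Men1, C1qtnf1 and Gli1 passed without any 1 of the 16 libraries, and the other 65 lost their call without at least 1. Among the 22 genes without overlap or difference among genotypes, C1qtnf1 alone passed in all 16 of these fits, while 19 lost their call without WT library 3, 19 without WT library 4, 16 without WT library 2 and 15 without WT library 1. In all, 39 genes passed without WT library 1, 22 without WT library 2, 16 without WT library 3 and 15 without WT library 4. Of the Cre libraries, leaving out DMC library 2 left 27 genes, DMC library 4 left 29, DC library 3 left 34 and MC library 4 left 35, while without DC library 4 the count was 137. Without WT libraries 2 and 3 together 37 genes passed, of which 15 were among the 73. None of the 73 changed the sign of its difference in any of these fits. The threshold itself split like values, with Cyp2j5 and Snx25 just inside it (limma, adjusted p = 0.0496 and 0.0498) and Aqp5 and Zfhx4 just outside (adjusted p = 0.0507 and 0.0515).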

How the data were processed

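Per the labels' protocols, RNA from flash-frozen pancreas went into TruSeq stranded libraries. STAR 2.6.0b, DESeq2 and GRCm38 are named in the submitters' processing notes. The sources used here do not name the counter, its strand setting or the annotation, so counts of overlapping genes and of near-identical copies (insulins, chymotrypsins, osteocalcins) are uncertain. The deposited values are a normalized count signal, which in every library gave whole multiples of 1 step (100% of values within 0.01 reads), so reads could be recovered. A 0 is compatible with 3 reads or fewer, or 1.84 to 5.30 normalized counts by library, for counting error only. Gene positions came from GENCODE release M21 on GRCm38, with 15152 of 15156 identifiers found.

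Genes that reached 10 normalized counts in 4 or more libraries were fitted on log2(normalized count + 1) with limma 3.58.1 (trend) in R 4.3.3, with 16 libraries and a coefficient per genotype. The contrast was the mean of DC, MC and DMC minus WT, adjusted over all genes by Benjamini-Hochberg with a threshold of 0.05. Errors after ± are standard errors of log2 differences. A moderated F-test compared DC, MC and DMC. The code was checked on simulated counts. The members, lists and tests were chosen with earlier results of these data known. Named were Daxx and Men1, the 12 largest rises and falls of 1 sign among called genes with a mean of at least 50 and an established symbol, those with the 8 smallest p, and up to 4 called or 2 abundant members of each list described. Other genes were chosen after their values were seen. Some members of the lists are not reported here by name, but count in the list values. Alternatives covered pseudocounts, filters, scaling, robust and weighted fits, edgeR 4.0.16, DESeq2 1.42.0, covariates, a replicate block and leaving out libraries or genotypes.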

Additional observations from a re-analysis of the deposited data

Results flagged for a closer look

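In 12 of the 224 groups of 4 libraries examined among the named genes, 1 library stood far from the other 3 of its group; the gap to the nearest of the 3, divided by the range of the group, exceeded Dixon's limit for 4 values. Chance flags about 1 group in 20, and 12 of 224 is close to that share. In DC, Gkn3 had 13.2 normalized counts in library 4 beside 213, 207 and 181 in the others (gap ratio 0.941), Zbtb46 had 335 in library 3 beside 269, 276 and 269 (0.872), Cym had 0 in library 3 beside 1.84, 1.66 and 2.201 (0.841), and Sh2d7 had 5.51 in library 1 beside 0 in the others (1). The last pair rest on a few reads. In MC, library 4 was highest for Slc9a4, at 317 beside 96.8, 81.0 and 78.8 (0.853), and for Cldn2, at 712 beside 327, 308 and 326 (0.928). In DMC, Zc3h12b had 28.7 in library 3 beside 44.6, 46.0 and 46.6 (0.910) and Serpini1 had 288 in library 1 beside 360.0, 375 and 364 (0.846). In WT, library 4 was highest for Ghrl, at 16.5 beside 5.30, 6.33 and 5.71 (0.852), and for Gli1, at 23.1 beside 14.1, 15.4 and 14.7 (0.832), while library 3 was highest for Men1, at 459 beside 331, 345 and 336 (0.867), and for Sftpd, at 62.8 beside 35.4, 35.3 and 34.0 (0.938).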

How the results depend on the processing

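Of 34 alternatives, none turned the sign of any of the 73 called genes, Men1 among them, and Bglap3 passed in all. Daxx, which did not pass, stood at 0.0093 without WT libraries 2 and 3. The count of 73 genes (57 higher, 16 lower, 69 of 1 sign in the 3 genotypes) became 48 (33 higher, 44 of 1 sign) with a mean filter of 50, 37 (28, 9 lower, 33 of 1 sign) under quantile normalization, 188 (154, 34, 180) with library weights, 48 (31 higher, 44 of 1 sign) with edgeR, 340 (249, 91, 326) with DESeq2, 13 (12, 1, 13) with 12 Cre libraries as 1 group, and 111 (32 lower, 105 of 1 sign) with the lymphoid level as covariate. Without WT libraries 2 and 3 it was 37 (30, 7, 36). Leaving out DC gave 252 (183, 69), leaving out MC 5 (5, 0) and leaving out DMC 1 (1, 0). With the level of Y-linked genes as covariate it was 65. The replicate numbers did not pair the libraries: over 24 same-numbered pairs the deviations correlated at -0.371 to 0.384, 11 above 0.1, and 1 of 16 libraries correlated best with one of its own number. The replicate block left 9 genes (7, 2, 6). Without each library the count was 15 to 137 (11 to 115 higher, 4 to 22 lower, 13 to 133 of 1 sign).

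The 152 genes that differed among DC, MC and DMC became 1515 with library weights, 234 with the lymphoid covariate and 53 with the replicate block, and 35 to 209 without each library. Genes with no overlap, 73 above and 19 below WT, became 269 and 144 without DC, 153 and 35 without MC, and 126 and 44 without DMC. They became 454 and 580 without WT libraries 2 and 3. Fewer libraries then had to be separate, so these counts could not fall. How far the choice of libraries added to their rise was not tested. Without each library the genes above and below WT were 73 to 151 and 19 to 54. The Men1 difference of -0.73 was no longer past the threshold with Cre libraries as 1 group (-0.73), without MC (-0.36), without DMC (-0.54) and without WT libraries 2 and 3 (-0.60). Without each library it was -0.78 to -0.62, and the Daxx difference -0.39 to -0.12. Of the most abundant members of the lists, none of them called, 10 of those reported changed sign or reached 0. Quantile normalization gave 0 for Ctrb1, 0.2177 for Cel, 0.0562 for Pecam1, -0.0417 for Clu and 0.0287 for Xbp1. Without WT libraries 2 and 3 Il7r stood at 0.4758, Jchain at 0.2763, Pecam1 at 0.2455, Ptprn2 at -0.007 and Clu at -0.0391. With the lymphoid covariate Il7r stood at 0.0503, Jchain at 0.0918, Pecam1 at 0.2023 and Clu at -0.0571. Il7r and Jchain belong to the lists that form the lymphoid level, so their move towards 0 with it was built in. WT libraries 2 and 3 had the highest WT levels of those lists. Pecam1 stood at 0.0097 with TMM scaling, 0.0021 with edgeR and 0.0207 with DESeq2, and Clu at -0.014 with edgeR and -0.0008 with DESeq2. Library weights gave -0.067 for Clu, 0.1356 for Tff2 and 0.0774 for Xbp1. Without MC it was 0.0598 for Pecam1, -0.0903 for Clu and 0.2336 for Jchain, without DMC -0.0606 for Clu, and without DC 0.0276 for Tff2 and 0.0761 for Xbp1. Without each library Pecam1 was -0.134 to 0.1587, Clu -0.1368 to 0.1453, Tff2 -0.407 to 0.047, Xbp1 -0.17 to 0.0855 and Parp14 -0.0226 to 0.6204. Apart from changes set by fewer libraries, the cause was not tested. With 4 animals a group, differences smaller than those called were often not detectable.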

Other observations

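Gene groups not described above had no member past the threshold in limma. At an unadjusted p below 0.05 there were 2 of 15 smooth muscle, 10 of 19 protease, 3 of 30 folding and 5 of 14 clock repressor genes, beside 1834 of all 14220. All 15 smooth muscle and pericyte genes had a positive pooled difference, with a median log2 of 0.32. That median was 0.32 in DC, 0.10 in MC and 0.49 in DMC, and 7 of the 15 were positive in all 3 genotypes. Of 19 genes of matrix proteases and their inhibitors, 18 had a positive difference. Their median of 0.43 was 0.72 in DC, 0.43 in MC and 0.33 in DMC. Of 30 genes of protein folding in the endoplasmic reticulum, 26 had a negative difference, with a median of -0.21. The 14 clock repressor and output genes had 10 positive and 4 negative differences, with medians of 1.08 in DC, -0.12 in MC and 0.25 in DMC. Of 10 tested genes near Pdx1, 0 passed in limma, edgeR or DESeq2 and 1 had an unadjusted p below 0.05, with a median of -0.11.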
